A study of Homo sapiens with 8 samples.

Results

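The NF-kB and inflammatory cytokine genes described here are 9 of the 63140 genes in the count table. They are the cytokines TNF, IL1B, CXCL8 and CCL3, the transcription factor subunits NFKB1, NFKB2 and RELB, and the feedback inhibitors NFKBIA and TNFAIP3. They were taken by name, by matching Ensembl gene identifiers to symbols, from a list drawn up with earlier results of these data known. All 9 passed the filter on low counts and were tested in all 8 libraries of the series.

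The libraries hold RNA pulled down by ChIRP (chromatin isolation by RNA purification), in which biotinylated DNA probes capture RNA from cross-linked, sonicated lysate. The cells are labelled MOLM13 and OCI-AML4, established human acute myeloid leukaemia lines. In AAVS1 KO, labelled genotype WT, cells were nucleofected with Cas9 ribonucleoprotein and guide RNA to AAVS1, the editing control site. HOTSCRAMBL KO cells received Cas9 with guide RNA to the long non-coding RNA gene HOTSCRAMBL. AAVS1 CBE, also labelled WT, and HOTSCRAMBL CBE received a cytosine base editor with guide RNA to the same targets. All cells were nucleofected and all were collected on day 3 after editing. Each group held 2 libraries, of which replicate 1 is labelled MOLM13 and replicate 2 OCI-AML4, so each label stands in a group once. The p-values rest on the spread between libraries that remains after group and line label are accounted for. In them the spread of each gene was drawn towards a trend over all genes. They do not measure a spread between repeats within a line label. Between the line labels 119 of the 24057 genes tested (0.495%) differed in edgeR, and whether the labels hold was not tested, so values per line below are values per label. The labels give neither the target of the probes, nor an input library, nor the share of edited alleles, nor whether the cells were clones. A level below is an amount of RNA in a pull-down of many cells. In it, fewer cells of a kind, less RNA per cell and less capture by the probes cannot be told apart. HOTSCRAMBL itself was not analysed here, since 0 genes of the table carry that name.

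NF-kB is a family of transcription factors that act as dimers of Rel proteins and bind short DNA elements called kappaB sites. In resting cells IkB proteins such as the product of NFKBIA hold the dimers in the cytoplasm. Signals from TNF, interleukin-1 or Toll-like receptors activate the IKK kinases, which mark IkB for destruction and free the dimers to enter the nucleus. Genes switched on in turn include inflammatory cytokines and chemokines, and also NFKBIA and TNFAIP3, which shut the pathway down again. Leukaemic myeloid cells are known for active NF-kB signalling and for making several of these cytokines themselves.

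Total counts ran from 20548300 to 37970163 per library, and both reads of a pair were counted separately. RNA of the mitochondrial genome took 6.77% to 7.23% of counts in the 4 AAVS1 libraries and 10.2% to 11.9% in the 4 HOTSCRAMBL libraries. Messages of 86 ribosomal protein genes took 1.32% to 1.60% in AAVS1 libraries, 3.98% and 4.46% in HOTSCRAMBL KO, and 3.20% and 3.38% in HOTSCRAMBL CBE. The summed level of 12 markers of acute myeloid leukaemia and monocytic cells was 1170 to 1820 CPM (counts relative to the TMM-scaled library total) per library, highest in HOTSCRAMBL KO with 1630 and 1820. Of these 12 markers 11 were tested, and with KO 3 rose, 0 fell and 6 had a negative value that did not pass (edgeR). The 3 were LYZ, the lysozyme of monocytes and granulocytes, by 2.20 on the log2 scale (edgeR adjusted p 9.41e-13), CEBPA, a myeloid transcription factor, by 1.00 (edgeR adjusted p 4.62e-06), and CSF1R, the receptor of a macrophage growth factor, by 0.69 (edgeR adjusted p 0.0227). With LYZ left out of the sum, HOTSCRAMBL KO stood at 1120 CPM in both libraries and AAVS1 KO at 1040 and 1140 CPM. In the same list KIT, CD68 and CD14 were at 0 in 6, 4 and 5 of the 8 libraries. Markers of T cells, erythroid cells, epithelial cells and fibroblasts summed to at most 2.35 CPM in any library, and CD3E, CD2, HBB and KRT19 were at 0 in all 8. Markers of B cells summed to 6.32 to 11.4 CPM. The part of these shares and markers in the results below was not tested.

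The start regions of the 9 genes were searched for kappaB sites by the standard ten-letter consensus on both strands, in the 250 bases before each RefSeq start site (GRCh38.p14). The RefSeq table used held 8 of the 9, RELB being the one not matched. A match was found for 4 of those 8, namely NFKBIA, NFKB1, TNFAIP3 and NFKB2, the last only before downstream start sites. For comparison, 11.8% of 27305 genes in the same table had a match. The stretches upstream of the first start site are shown for the 4 genes that rose in HOTSCRAMBL KO and for TNFAIP3, which has 2 adjoining matches and no such rise. Capitals mark a kappaB match, sequences run 5′ to 3′ on the strand of the gene, and each ends at the base before the annotated gene. They lie at chr14:35404750-35404999 (minus strand), chr4:102501109-102501329, chr6:31575315-31575564, chr4:73740319-73740518 and chr6:137867009-137867213 (all 4 plus strand).
NFKBIA promoter: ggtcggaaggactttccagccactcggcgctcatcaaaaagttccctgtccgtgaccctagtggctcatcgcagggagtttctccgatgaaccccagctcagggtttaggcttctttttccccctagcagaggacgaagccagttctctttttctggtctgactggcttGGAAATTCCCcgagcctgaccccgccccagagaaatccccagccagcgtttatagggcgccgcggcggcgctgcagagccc
NFKB1 promoter: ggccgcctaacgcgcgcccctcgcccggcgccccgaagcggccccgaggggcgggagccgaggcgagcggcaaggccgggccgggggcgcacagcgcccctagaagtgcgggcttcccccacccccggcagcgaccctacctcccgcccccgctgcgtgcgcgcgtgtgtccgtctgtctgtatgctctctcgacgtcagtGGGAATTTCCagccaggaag
TNF promoter: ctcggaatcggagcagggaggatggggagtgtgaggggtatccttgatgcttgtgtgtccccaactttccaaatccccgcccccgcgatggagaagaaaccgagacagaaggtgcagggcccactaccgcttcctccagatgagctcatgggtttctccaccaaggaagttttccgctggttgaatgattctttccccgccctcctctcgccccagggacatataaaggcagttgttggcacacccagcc
CXCL8 promoter: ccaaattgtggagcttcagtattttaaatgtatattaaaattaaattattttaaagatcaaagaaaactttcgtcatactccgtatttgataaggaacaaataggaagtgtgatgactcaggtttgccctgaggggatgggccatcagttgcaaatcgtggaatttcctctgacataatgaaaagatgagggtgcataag
TNFAIP3 promoter: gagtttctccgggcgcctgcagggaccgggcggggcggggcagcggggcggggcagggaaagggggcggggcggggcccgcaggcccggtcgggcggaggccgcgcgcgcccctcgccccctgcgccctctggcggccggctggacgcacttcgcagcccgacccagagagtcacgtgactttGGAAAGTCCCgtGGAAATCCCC
The NFKBIA match lies 81 to 72 bases before the start and the NFKB1 match 49 to 40 bases before it. The TNFAIP3 matches lie 67 to 58 and 55 to 46 bases before its start. These distances count from the RefSeq start, which for NFKB1 and TNFAIP3 lies downstream of the last base printed. The TNF and CXCL8 stretches hold no match, which says only that those letters are not in these windows.

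A second sequence feature is the AU-rich element of short-lived mRNAs, searched as TTATTTATT in the 3′ untranslated regions of 1 GENCODE 29 transcript per gene. It was present in 4 of the 9 genes, against 7.28% of 19549 genes. TNF had 5 copies (overlaps counted), IL1B 2, CXCL8 1 and TNFAIP3 1. The 30 bases with the most copies of the pentamer ATTTA, in capitals, are shown for the 2 cytokines that rose in HOTSCRAMBL KO, 5′ to 3′ on the mRNA strand.
TNF element: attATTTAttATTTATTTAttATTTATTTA
CXCL8 element: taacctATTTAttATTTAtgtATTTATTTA
These windows hold 5 and 4 copies of ATTTA. NFKBIA, NFKB1, NFKB2, RELB and CCL3 had no copy of TTATTTATT.

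In the control libraries the 9 genes spanned a wide range of levels. Levels of different genes are compared as RPKM, CPM per kilobase of exon. Over the 4 AAVS1 libraries TNFAIP3 was the highest with 46.4 ± 4.58 RPKM (SD, n = 4). TNF followed with 11.4 ± 2.40 RPKM and NFKBIA with 8.85 ± 2.72 RPKM, and the ranges of these neighbours overlapped. CXCL8 (4.34 ± 0.851 RPKM), NFKB2 (4.23 ± 0.720 RPKM) and RELB (3.97 ± 0.298 RPKM) formed a run of overlapping neighbours. NFKB1 stood at 2.17 ± 0.302 RPKM, below every RELB value. That order depends on the exon length, which takes all annotated exons of a gene together, 15679 bases for NFKB1 and 2997 for RELB. In CPM the lowest NFKB1 value of these libraries, 27.3, was above the highest RELB value, 13.0. CCL3 (0.514 ± 0.440 RPKM) and IL1B (0.446 ± 0.138 RPKM) were lowest and overlapped. The CCL3 value is an underestimate of unknown size, because 74.63% of its exon bases are shared with the antisense gene CCL3-AS1 and reads over 2 genes were not counted. TNFAIP3 shares 1.47% of its exon bases with the antisense gene WAKMAR2, and the other 7 genes share none.

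The first comparison asked how Cas9 targeting of HOTSCRAMBL changed these RNAs, against AAVS1 KO. NFKBIA, TNF, CXCL8 and NFKB1 rose, between 1.92-fold and 4.38-fold, and none of the 9 fell. These 4 of 9 genes passed the threshold of an adjusted p of 0.05, where 8.76% of the 24057 genes tested passed it in either direction and 4.51% passed it as higher. The median log2 fold change was 0.564 over the 9 genes and −0.0143 over all genes tested. The HOTSCRAMBL KO values lay apart from the AAVS1 KO values for 6 of the 9, all upward, against 44.8% of all genes in either direction. In a fit without AAVS1 KO replicate 1 only NFKBIA of the 9 still passed. The HOTSCRAMBL KO libraries also held more mitochondrial RNA, ribosomal protein messages and LYZ than AAVS1 KO, and more CEBPA and CSF1R, while the summed marker level without LYZ lay within the AAVS1 KO range, as given above. Mitochondrial RNA and ribosomal protein messages were higher in HOTSCRAMBL CBE too. With CBE 2 of the 11 markers tested rose and 0 fell (edgeR). These were CEBPA, by 0.61 on the log2 scale (edgeR adjusted p 0.00212), and PTPRC, by 0.67 (edgeR adjusted p 0.00647). LYZ and CSF1R did not pass with CBE (0.23 and −0.53, edgeR adjusted p 0.338 and 0.0927). In all sentences below, values of a group are given for the library labelled MOLM13 first and for the one labelled OCI-AML4 second, as CPM after TMM scaling.

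**Figure D1:**
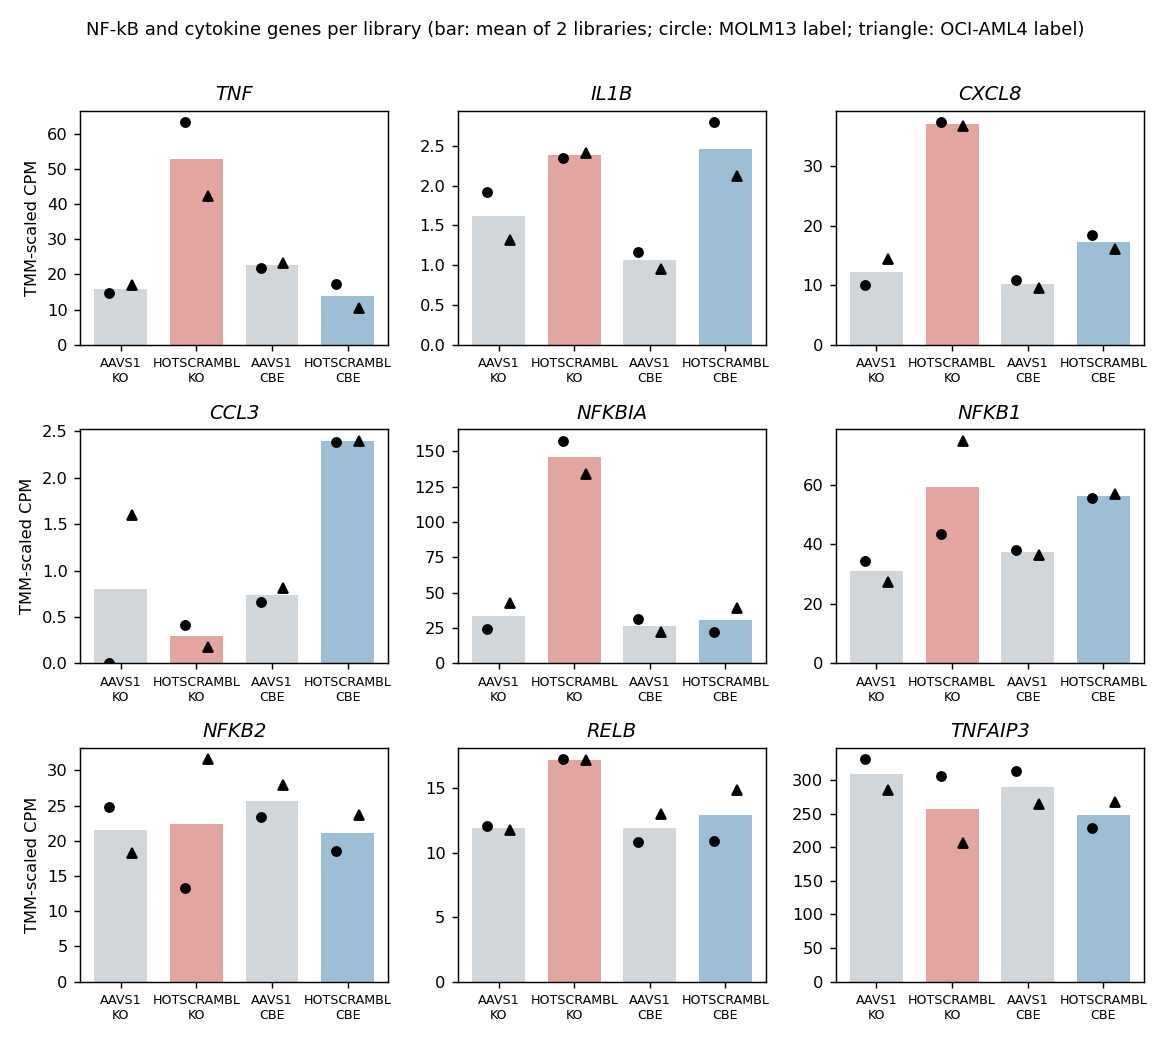
Level of each of the 9 genes in every library, as TMM-scaled CPM on a linear axis that starts at 0, with a separate scale per gene. Bars are means of 2 libraries, circles the MOLM13 label and triangles the OCI-AML4 label. Both HOTSCRAMBL KO points lie above all 6 others for NFKBIA, TNF and CXCL8, at 134 and 157.5 CPM for NFKBIA. The same holds for RELB, which did not pass the test.

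Among the inhibitors, NFKBIA (ENSG00000100906, chromosome 14, 35401079 to 35404749, minus strand), which encodes IkB-alpha, changed most. It measured 24.2 and 42.6 CPM for AAVS1 KO against 157.5 and 134 CPM for HOTSCRAMBL KO, and 31.1 and 22.1 CPM for AAVS1 CBE against 22.3 and 39.3 CPM for HOTSCRAMBL CBE. Both HOTSCRAMBL KO libraries were above all 6 other libraries. Its mean rose from 33.4 ± 13.0 CPM to 145.8 ± 16.6 CPM (each SD, n = 2), or by 2.13 ± 0.240 on the log2 scale (± SE, edgeR adjusted p 4.02e-07). The rise was 6.50-fold in the pair labelled MOLM13 and 3.15-fold in the pair labelled OCI-AML4. It is the gene with the kappaB match 81 bases before its start.

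TNFAIP3 (ENSG00000118503, chromosome 6, 137867214 to 137883314, plus strand) edits ubiquitin chains on signalling proteins and so limits the pathway. It measured 331.1 and 285.5 CPM for AAVS1 KO against 305.9 and 206.5 CPM for HOTSCRAMBL KO, and 314 and 264.8 CPM for AAVS1 CBE against 228.2 and 268 CPM for HOTSCRAMBL CBE. The groups overlapped under both editors. The KO effect was −0.28 ± 0.137 on the log2 scale (± SE, edgeR adjusted p 0.257) and the CBE effect −0.22 ± 0.133 (edgeR adjusted p 0.378). The 95% interval of the KO value ran from −0.56 to 0.0035. Without TMM scaling the KO value was −0.43 and passed the threshold (edgeR adjusted p 0.0466), a setting in which the median of all genes itself moved to −0.17.

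Of the transcription factor subunits, NFKB1 (ENSG00000109320, chromosome 4, 102501330 to 102617302, plus strand) encodes the precursor of a DNA-binding subunit of the classical dimer. It measured 34.5 and 27.3 CPM for AAVS1 KO against 43.4 and 74.9 CPM for HOTSCRAMBL KO, and 37.9 and 36.6 CPM for AAVS1 CBE against 55.6 and 56.9 CPM for HOTSCRAMBL CBE. All 4 HOTSCRAMBL libraries were above all 4 AAVS1 libraries. With KO it rose by 0.94 on the log2 scale (SE 0.258, edgeR adjusted p 0.0193), by 1.26-fold under the MOLM13 label and 2.74-fold under the OCI-AML4 label. The call was lost on leaving out AAVS1 KO replicate 1, AAVS1 KO replicate 2, HOTSCRAMBL KO replicate 2 or either HOTSCRAMBL CBE library (edgeR adjusted p 0.0602 to 0.534). In those 5 fits its log2 fold change was 1.24, 0.67, 0.44, 0.93 and 0.93, in that order, and it was 1.31 without HOTSCRAMBL KO replicate 1, where it still passed (edgeR adjusted p 0.0111). It was also lost in a fit of the 4 KO-arm libraries alone (edgeR adjusted p 0.181).

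NFKB2 (ENSG00000077150, chromosome 10, 102394110 to 102402524, plus strand) encodes the precursor subunit of the alternative pathway. It measured 24.9 and 18.3 CPM for AAVS1 KO against 13.3 and 31.6 CPM for HOTSCRAMBL KO, and 23.4 and 27.9 CPM for AAVS1 CBE against 18.5 and 23.7 CPM for HOTSCRAMBL CBE. The lowest and the highest of all 8 values both belonged to HOTSCRAMBL KO. Its log2 fold change was 0.065 with KO (95% interval −0.66 to 0.79, edgeR adjusted p 0.949) and −0.29 with CBE (95% interval −0.92 to 0.35, edgeR adjusted p 0.665).

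RELB (ENSG00000104856, chromosome 19, 45001461 to 45038192, plus strand), the partner of the NFKB2 product, measured 12.1 and 11.8 CPM for AAVS1 KO against 17.2 and 17.2 CPM for HOTSCRAMBL KO. In the base-edited arms it measured 10.8 and 13.0 CPM for AAVS1 CBE against 10.9 and 14.9 CPM for HOTSCRAMBL CBE. Both HOTSCRAMBL KO values were above the other 6. The KO log2 fold change of 0.52 did not pass the test (SE 0.389, 95% interval −0.28 to 1.32, edgeR adjusted p 0.504). With CBE it was 0.098 (95% interval −0.66 to 0.86, edgeR adjusted p 0.919).

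Among the cytokines, TNF (ENSG00000232810, chromosome 6, 31575565 to 31578336, plus strand) is both an output of NF-kB and one of its strongest activators. It measured 14.7 and 17 CPM for AAVS1 KO against 63.3 and 42.3 CPM for HOTSCRAMBL KO, and 21.9 and 23.2 CPM for AAVS1 CBE against 17.2 and 10.5 CPM for HOTSCRAMBL CBE. Both HOTSCRAMBL KO values were above all others, while both HOTSCRAMBL CBE values were below their own controls. With KO the mean rose from 15.8 ± 1.65 CPM to 52.8 ± 14.8 CPM (each SD, n = 2), or by 1.725 ± 0.298 on the log2 scale (± SE, edgeR adjusted p 0.000228). The rise was 4.31-fold under the MOLM13 label and 2.49-fold under the OCI-AML4 label. Without AAVS1 KO replicate 1 it was 1.43 on the log2 scale and no longer passed (edgeR adjusted p 0.0816).

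CXCL8 (ENSG00000169429, chromosome 4, 73740519 to 73743716, plus strand) encodes the neutrophil chemoattractant interleukin-8. It measured 10.1 and 14.4 CPM for AAVS1 KO against 37.4 and 36.8 CPM for HOTSCRAMBL KO, and 10.9 and 9.54 CPM for AAVS1 CBE against 18.4 and 16.1 CPM for HOTSCRAMBL CBE. All 4 HOTSCRAMBL libraries were above all 4 AAVS1 libraries, those of KO highest. With KO the mean rose from 12.3 ± 3.06 CPM to 37.1 ± 0.428 CPM (each SD, n = 2), or by 1.60 ± 0.328 on the log2 scale (± SE, edgeR adjusted p 0.00156). It lost that call without AAVS1 KO replicate 1 (1.315, edgeR adjusted p 0.132) and in a fit of the 4 KO-arm libraries alone (1.61, edgeR adjusted p 0.0501).

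IL1B (ENSG00000125538, chromosome 2, 112829751 to 112836816, minus strand), the inflammasome-processed cytokine interleukin-1 beta, was scarce, with 27 to 101 counts per library. It measured 1.92 and 1.32 CPM for AAVS1 KO against 2.35 and 2.41 CPM for HOTSCRAMBL KO, and 1.17 and 0.954 CPM for AAVS1 CBE against 2.80 and 2.13 CPM for HOTSCRAMBL CBE. All 4 HOTSCRAMBL libraries were above all 4 AAVS1 libraries, but neither difference passed the test. The log2 fold change was 0.56 with KO (95% interval −1.34 to 2.46, edgeR adjusted p 0.789) and 1.22 with CBE (95% interval −0.58 to 3.02, edgeR adjusted p 0.482). Both intervals include no change as well as changes as large as their upper limits.

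CCL3 (ENSG00000277632, chromosome 17, 36088256 to 36090169, minus strand) encodes a chemokine that draws monocytes. It measured 0 and 1.60 CPM for AAVS1 KO (0 and 40 counts) against 0.408 and 0.179 CPM for HOTSCRAMBL KO (8 and 4 counts), and 0.660 and 0.813 CPM for AAVS1 CBE (22 and 23 counts) against 2.38 and 2.40 CPM for HOTSCRAMBL CBE (86 and 61 counts). The HOTSCRAMBL KO values lay between those of AAVS1 KO, and both HOTSCRAMBL CBE values were above all others. The 0 of AAVS1 KO replicate 1 allows up to 3 fragments, which is up to 6 counts or 0.235 CPM, by counting error alone. Neither test passed, at a log2 fold change of −1.47 with KO (95% interval −5.49 to 2.54, edgeR adjusted p 0.736) and 1.73 with CBE (95% interval −0.36 to 3.82, edgeR adjusted p 0.365). The KO value turned to 5.99 without AAVS1 KO replicate 2 and to 0.016 with limma-voom, so it has no settled sign.

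**Figure D2:**
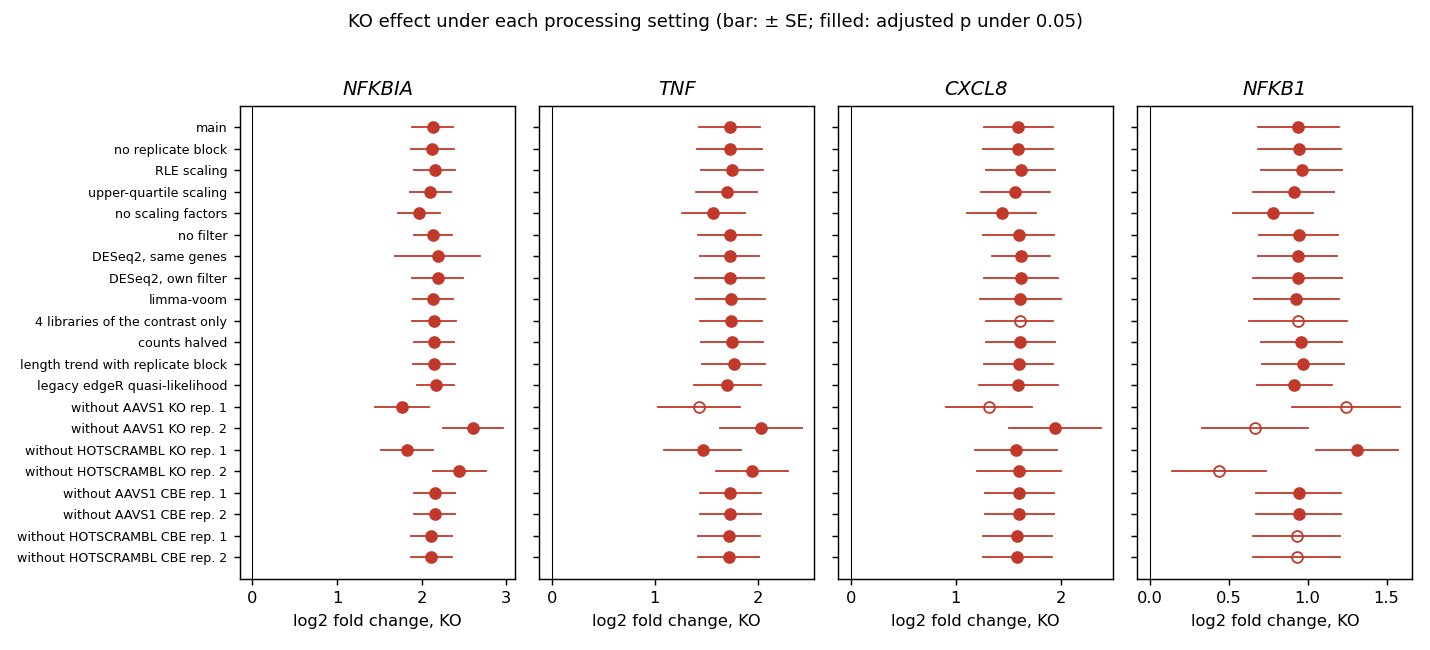
Log2 fold change of HOTSCRAMBL KO against AAVS1 KO under each processing setting (rows) for the 4 genes that rose, with bars of 1 SE on each side and filled points where the adjusted p was under 0.05. All points lie right of 0, and NFKBIA is filled in every row, with values from 1.77 to 2.61.

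The same question was put to cytosine base editing, with HOTSCRAMBL CBE set against AAVS1 CBE. None of the 9 genes passed the test (0 with edgeR, 0 with DESeq2 and 0 with limma-voom), where 8.83% of all genes tested passed it. At an unadjusted p under 0.05 there were 3 of 9, against 20.1% of all genes. Those were TNF with −0.67 (SE 0.322, edgeR adjusted p 0.243), CXCL8 with 0.77 (SE 0.354, edgeR adjusted p 0.219) and NFKB1 with 0.59 (SE 0.228, edgeR adjusted p 0.117). In each of them both pairs of libraries pointed the same way. TNF stood at 0.783 and 0.454 of its control, CXCL8 at 1.69 and 1.69 times, and NFKB1 at 1.47 and 1.56 times. NFKBIA, the gene with the highest KO value, had a CBE value of 0.14 (95% interval −0.46 to 0.74, edgeR adjusted p 0.846), with pairs on opposite sides at 0.715 and 1.78. The median was 0.138 over the 9 genes and −0.0188 over all genes. The values of the 2 groups did not overlap for 5 of the 9, against 46.4% of all genes.

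**Figure D3:**
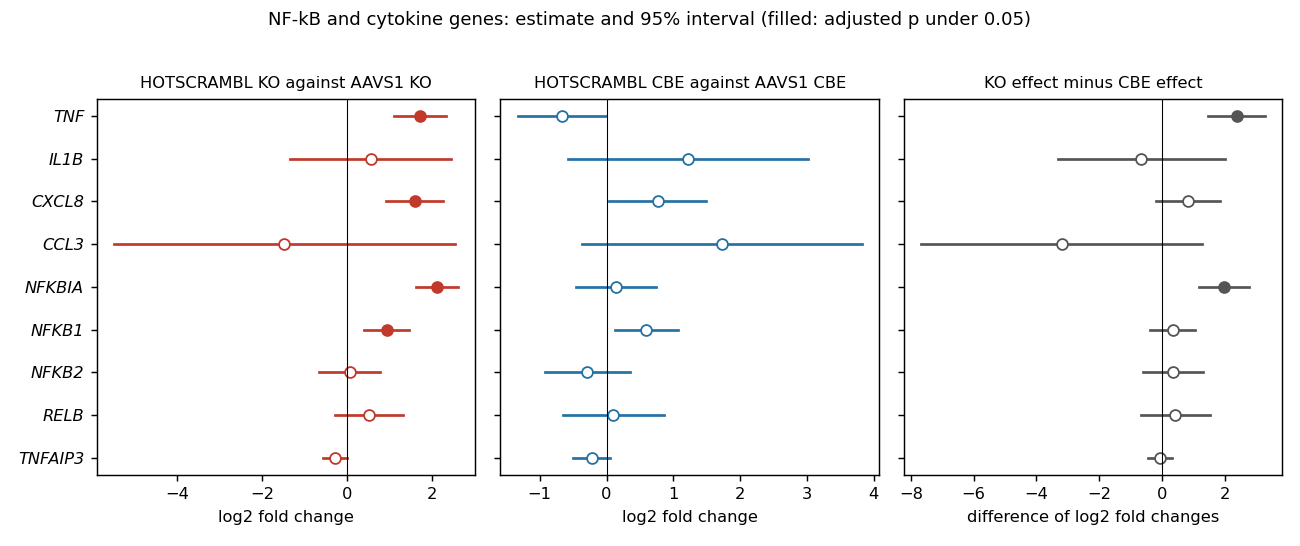
Estimated log2 fold change with its 95% interval for the 9 genes, for HOTSCRAMBL KO against AAVS1 KO (left), HOTSCRAMBL CBE against AAVS1 CBE (middle) and the difference of these 2 effects (right), each panel with its own axis. Filled points passed the threshold: 4 genes at left, 0 in the middle, and TNF and NFKBIA at right.

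Whether the editors differed was tested as the KO effect minus the CBE effect. TNF and NFKBIA passed, 2 of 9 genes against 3.19% of all genes tested. The TNF effects differed by 2.39 on the log2 scale (SE 0.441, 95% interval 1.49 to 3.30, edgeR adjusted p 0.00151), from 1.725 with KO to −0.67 with CBE. The NFKBIA effects differed by 1.99 (SE 0.385, 95% interval 1.20 to 2.78, edgeR adjusted p 0.00254). Both calls were lost without AAVS1 KO replicate 1 (edgeR adjusted p 0.0778 and 0.130) and without HOTSCRAMBL KO replicate 1 (0.0587 and 0.103), and that of NFKBIA also without AAVS1 CBE replicate 1 (0.177) or HOTSCRAMBL CBE replicate 1 (0.138). CXCL8 rose with KO and did not pass with CBE, but the difference of 0.83 did not pass either (95% interval −0.19 to 1.85, edgeR adjusted p 0.483). The same holds for NFKB1, with a difference of 0.35 (95% interval −0.37 to 1.06, edgeR adjusted p 0.725). The other 5 genes had differences from −3.20 for CCL3 to 0.42 for RELB, none past the threshold.

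At the control site the 2 editing methods were compared as AAVS1 KO against AAVS1 CBE. With edgeR 0 of the 9 genes passed, against 0% of all genes tested, and DESeq2 and limma-voom also called 0 of the 9. At an unadjusted p under 0.05 there were 0 of the 9 and 918 of all genes (3.82%). The values ran from −0.50 for TNF (95% interval −1.18 to 0.18) to 0.61 for IL1B. TNF measured 14.7 and 17 CPM for AAVS1 KO against 21.9 and 23.2 CPM for AAVS1 CBE. This gap between the controls, which did not pass, enters the TNF difference of 2.39 given above. Between the line labels, adjusted for group, 0 of 9 genes passed, against 0.495% of all genes. At an unadjusted p under 0.05 there were 0 of the 9, against 9.19% of all genes. TNFAIP3 came nearest, with 0.19 higher under the MOLM13 label (95% interval −0.0064 to 0.39, edgeR adjusted p 0.559). The HOTSCRAMBL effect averaged over KO and CBE did not differ detectably between line labels for any of the 9. Of the 9, 0 were under an unadjusted p of 0.05, against 4.09% of all genes, and 0% of all genes passed the threshold. The widest intervals of this label difference were those of CCL3 and IL1B. Label differences of opposite sign under the 2 editors cancel in the average. NFKBIA pairs, MOLM13 label first, had log2 ratios of 2.70 and 1.65 with KO and −0.483 and 0.829 with CBE. Whether the KO or the CBE effect alone differed between labels was not tested.

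The rest of the pathway was read from 8 lists with 111 genes, of which 95 were tested. With KO 12 of these rose and 4 fell, with CBE 10 rose and 5 fell, and 0 differed between the controls. The shares of all genes tested that passed in these contrasts were 8.76%, 8.83% and 0%. Their median was −0.0064 with KO and 0.119 with CBE, against −0.0143 and −0.0188 for all genes.

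Other known NF-kB target genes had the most calls with KO, 6 higher and 2 lower of 18 tested, with a median of 0.566. Means below are of 2 libraries, control first, with their SD, and a ± on the log2 scale is an SE. GADD45B, a stress protein that binds kinases, rose by 2.46 ± 0.231 on the log2 scale (edgeR adjusted p 1.71e-08), with means of 32.1 ± 4.38 and 176.9 ± 40.3 CPM. IER3, an immediate early survival gene, rose by 1.93 ± 0.201 (edgeR adjusted p 1.09e-07), with means of 44.2 ± 7.38 and 169 ± 22.0 CPM. CD83, a surface protein of activated antigen-presenting cells, rose by 1.87 ± 0.411 (edgeR adjusted p 0.00317), with means of 8.03 ± 6.64 and 29.2 ± 0.643 CPM. The transcription factor gene KLF6 fell by 1.17 on the log2 scale (SE 0.204, edgeR adjusted p 0.000236), and PLAUR, the urokinase receptor, fell by 0.63 (SE 0.130, edgeR adjusted p 0.00178). Target genes of the pathway thus moved in both directions with KO.

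With CBE the same list had 1 gene higher and 2 lower of 18, with a median of 0.188. ICAM1, an adhesion molecule, rose by 1.425 ± 0.384 (edgeR adjusted p 0.0166), with means of 6.78 ± 0.851 and 18.2 ± 2.37 CPM. TNFAIP2 fell by 0.79 (SE 0.168, edgeR adjusted p 0.00217) and PLAUR by 0.39 (SE 0.122, edgeR adjusted p 0.0447). GADD45B and IER3 stood at 36.9 ± 5.60 and 38.3 ± 9.18 CPM in HOTSCRAMBL CBE, beside 39.7 ± 15.8 and 39.7 ± 9.01 CPM in AAVS1 CBE. Their KO and CBE effects differed by 2.56 (SE 0.351, edgeR adjusted p 4.19e-05) and 2.00 (SE 0.312, edgeR adjusted p 0.000235). CFLAR, an inhibitor of death-receptor signalling, differed by 0.80 (SE 0.164, edgeR adjusted p 0.00429) and KLF6 by −1.36 (SE 0.269, edgeR adjusted p 0.00324). In all, 4 of 18 had a higher effect with KO than with CBE and 1 a lower one.

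**Figure D4:**
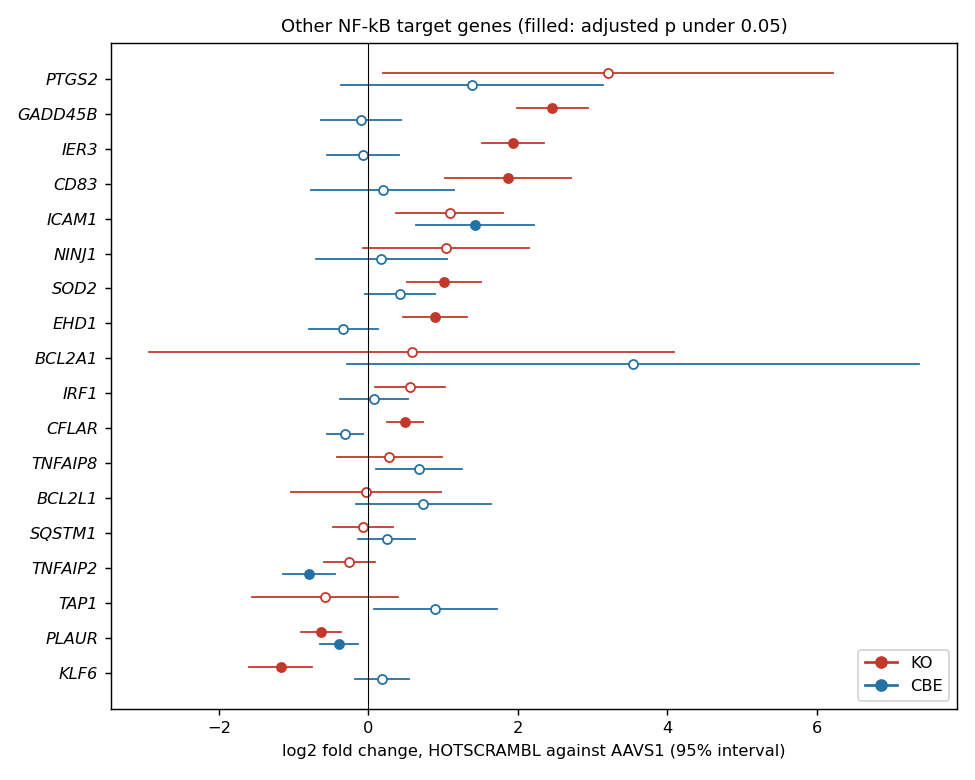
Log2 fold change with its 95% interval for the 18 other NF-kB target genes, ordered by their KO value, for KO (red) and CBE (blue). Filled points passed the threshold, 8 for KO and 3 for CBE. GADD45B and IER3 stand at 2.46 and 1.93 with KO, and their CBE intervals span 0.

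Of 22 receptors and adaptors tested, 3 rose with KO and 4 with CBE, and none passed as lower. RIPK1, the kinase recruited to the TNF receptor, rose by 1.06 with KO (edgeR adjusted p 1.74e-06; means of 123.6 ± 3.19 and 258 ± 4.91 CPM) and by 0.64 with CBE (edgeR adjusted p 0.00115; means of 130.8 ± 15.7 and 203.8 ± 1.87 CPM). TLR2, a sensor of bacterial lipoproteins, and LTBR, the lymphotoxin receptor, rose with KO by 0.77 and 0.60 (edgeR adjusted p 0.0338 and 0.0459). LTBR rose with CBE as well, by 0.64 (edgeR adjusted p 0.0223). TNFRSF1B, the second TNF receptor, and IL1RAP, the shared interleukin-1 coreceptor, rose with CBE by 0.76 and 0.77 (edgeR adjusted p 0.00456 and 0.00589).

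Of 11 genes for IKK subunits and for kinases and adaptors related to IKK, TBK1 and IKBKE rose with KO (0.80 and 0.36, edgeR adjusted p 0.0241 and 0.0253). IKBKB, the catalytic IKK subunit, fell under both editors, by 0.37 with KO and by 0.49 with CBE (edgeR adjusted p 0.0307 and 0.00235). TAB2, an adaptor of the upstream kinase, rose with CBE by 0.67 (edgeR adjusted p 0.0325). Of 7 other Rel and IkB genes none passed with KO, and BCL3, a nuclear IkB protein, rose with CBE from 4.86 ± 2.68 to 15.2 ± 2.27 CPM (1.58, edgeR adjusted p 0.0241). Of 9 feedback deubiquitinases and their partners, TNIP2 fell with KO by 0.71 (edgeR adjusted p 0.0429), and ITCH and N4BP1 rose with CBE by 1.02 and 0.83 (edgeR adjusted p 0.0325 and 0.0334).

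Of 11 other cytokines and chemokines tested, 0 passed with KO and CCL5 rose with CBE from 45.2 ± 9.83 to 81.3 ± 9.30 CPM (0.89, edgeR adjusted p 0.00653). Of 9 genes for the decay of cytokine mRNA, ZFP36L2, which binds AU-rich elements such as those shown above, rose with KO from 217.7 ± 25.9 to 469.1 ± 8.59 CPM (1.11, edgeR adjusted p 6.45e-08). Of 8 genes for processing and release of interleukin-1 and TNF, 0 passed with KO. With CBE the inflammasome sensor NLRP1 fell from 49.1 ± 0.170 to 20.4 ± 0.171 CPM (−1.27, edgeR adjusted p 0.000619). RHBDF2, which guides the TNF-releasing protease to the cell surface, fell by 0.71 (edgeR adjusted p 0.0305).

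Genes with the most similar profile over the 8 libraries were looked up for the 4 genes that rose, by Pearson r of log2(CPM + 1) among 8733 protein-coding genes. They describe a shared pattern of 4 groups in the same libraries and carry no test. NFKBIA was closest to IL7R (r = 0.979, rho = 0.881), followed by EEF1A2 (0.978) and CYFIP2 (0.969). TNF was closest to RXRA (r = 0.972, rho = 0.929), followed by PFKFB3 (0.967) and SLC8A1 (0.966). CXCL8 was closest to STK38L (r = 0.982, rho = 0.976), followed by SND1 (0.975) and ELOB (0.974). NFKB1 was closest to TUBB4B (r = 0.974, rho = 0.929), followed by COX7A2L (0.970) and PLPBP (0.968).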

How the data were processed

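ChIRP RNA was sequenced in 8 libraries, 2 in each of 4 groups taken from the sample titles. Values are raw gene counts as deposited, without normalisation by the authors. As the file headers give it, featureCounts 2.0.6 counted reads over Ensembl 112 exons of GRCh38 (per the file headers), without strand, multi-mapping or multi-gene reads. Per the file headers, both reads of a pair were counted, which doubles most counts. The aligner is not given in the sources used here. The exon length used for RPKM is the deposited length column.

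Genes were tested with edgeR 4.0.16 (quasi-likelihood F-test with robust estimation, R 4.3.3). TMM scaling and the filterByExpr filter (minimum count 10) left 24057 genes. The model had a term per group and one for the line label, and 3 residual degrees of freedom. The spread of each gene was also estimated from the other genes, with a median of 22.2 prior degrees of freedom. Benjamini-Hochberg adjustment of p-values ran over all genes tested (threshold 0.05). Replicate numbers follow the stated cell line, so the line label is the block. Deviations from group means correlated with r of 0.0203 to 0.053 between same-numbered libraries, and of 0.0445 to 0.128 over genes above the median CPM. The 2 libraries of a group differed by more than counting noise (chi-square per degree of freedom 35 to 41.9), and none was treated as a repeat. Symbols were found for 99.05% of identifiers. The table has 0 columns of other samples. The test was also run on simulated counts, drawn from its own fitted spread without a difference between line labels. No result here rests on that run. DESeq2 1.42.0 and limma 3.58.1 were alternatives.

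All 9 genes are named. Other pathway genes come from 8 lists, with up to 3 called genes per list, direction and contrast named by smallest adjusted p, and similar genes are the 3 with the highest r among genes with a mean of at least 10 CPM. Members and lists were chosen with earlier results of these data known, so the lists are described by counts and medians and no list was tested. Promoter sequences are from RefSeq (GRCh38.p14) and 3′ untranslated regions from GENCODE 29. No molecular identifiers were used, so the floor of 3 fragments (up to 6 counts, since both reads were counted) covers counting error only.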

Additional observations from a re-analysis of the deposited data

Results flagged for a closer look

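The response of 2 of the 9 genes differed between the editors by a test of the difference itself, the KO effect minus the CBE effect over both pairs of libraries. For TNF the difference was 2.393 on the log2 scale (edgeR adjusted p 0.00151), with HOTSCRAMBL KO above AAVS1 KO in 2 of 2 pairs and HOTSCRAMBL CBE below AAVS1 CBE in 2 of 2 pairs. For NFKBIA it was 1.991 (edgeR adjusted p 0.00254), with KO higher in 2 of 2 pairs and CBE higher in 1 of 2. With 2 libraries per group no group was large enough to be searched for outlying libraries.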

How the results depend on the processing

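For the 9 genes and 3 contrasts, 27 fold changes were recomputed under up to 20 alternatives, of which 1, edgeR's older quasi-likelihood fit, was chosen after seeing the data. Of the recomputed values 495 kept direction and side of the threshold, 15 lost the call, 1 gained it and 19 changed sign. Leaving out a library leaves its group with 1 library, which is then assumed to vary like the others. The number of the 9 genes called stayed at 4 with KO, 0 with CBE and 2 for their difference without the replicate block, and the block changed no other call among them. For all genes, the fit without the block gave 503 calls in place of 767 for the difference. In the fit of only the 4 libraries of a contrast, 2 of the 9 were called with KO, among 780 genes, and 677 genes were called with CBE. Leaving out 1 library gave 1 to 4 of the 9 with KO and 0 to 2 for the difference. The lowest KO number, 1 (NFKBIA), came without AAVS1 KO replicate 1, and 0 for the difference without AAVS1 KO replicate 1 or HOTSCRAMBL KO replicate 1. Over all genes, leaving out 1 library gave 677 to 1674 calls with KO (2108 with all 8), 586 to 1885 with CBE (2124), 226 to 372 for the difference (767) and 26 to 65 between line labels (119). DESeq2 on the same genes called 4150 genes with KO, 3350 with CBE, 2204 for the difference, 35 between controls, 715 between line labels and 67 for the effect between labels. With its own filter DESeq2 called 1195 for the difference, 4 between controls, 307 between line labels and 4 between label effects. Limma-voom called 265 between line labels, the length trend with replicate block 58, and the older edgeR fit 193, with 2 for the label effect. Without scaling factors the median of all genes was −0.17 with KO and −0.153 with CBE, and 33.1% of KO calls and 32.6% of CBE calls were higher, in place of 51.5% and 51.6%. The 4-library fits moved that share to 62.9% and 61%. Signs changed only for values that had not passed the test. Under settings with all 8 libraries, NFKB2 with KO was −0.099 without scaling, −0.019 and −0.021 with DESeq2 on the same genes and with its own filter, and −0.038 with the older edgeR fit. CCL3 with KO was 0.016 with limma-voom, and RELB with CBE −0.040 without scaling. With 1 library left out, the KO values ran from −2.46 to 5.99 for CCL3 and from −0.67 to 0.55 for NFKB2. The CBE values ran from −0.29 to 0.57 for NFKBIA, −0.080 to 0.29 for RELB and −0.50 to 0.062 for TNFAIP3. The differences ran from −4.16 to 4.285 for CCL3, −0.15 to 0.73 for NFKB1, −0.37 to 0.84 for NFKB2 and −0.35 to 0.21 for TNFAIP3. The cause of these changes was not tested. IL1B (27 to 101 counts) and CCL3 (0 to 86 counts) had few counts and wide intervals, so that only large changes could pass.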

Other observations

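WAKMAR2, the antisense gene that overlaps the 5′ end of TNFAIP3, measured 187 and 180 counts for AAVS1 KO against 93 and 177 counts for HOTSCRAMBL KO, and 204 and 214 counts for AAVS1 CBE against 561 and 209 counts for HOTSCRAMBL CBE. These counts are not scaled for library totals, and no test of them is given. The 93 counts belong to the library with the lowest total (20548300) and the 561 counts to the one with the highest (37970163). Strand was not used in the counting, so reads over the 95 shared exon bases were assigned to neither gene.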
